A study of Mus musculus with 4 samples.

Results

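The 10 genes Kdm2a, Kdm2b, Kdm3a, Kdm3b, Kdm4a, Kdm4b, Kdm4c, Kdm5b, Kdm6b and Kdm7a, which encode histone demethylases of the Jumonji C (JmjC) family, were followed in ventricles of mouse embryos with and without a Cre. This Cre is meant to delete floxed Hif1a in cardiac progenitors and their descendants. They were taken by symbol from a table of 38293 genes, and 10 of 10 were present and passed the filter on low counts that left 13711 genes for testing. The knockout group (cKO) had the genotype Hif1alphaflox/flox/Nkx2.5Cre/+, that is, both Hif1a alleles floxed, and 1 Nkx2-5 allele carrying Cre, which is thereby made in cardiac progenitors and their descendants. The control group had the genotype Hif1alphaflox/flox/Nkx2.5+/+, in which both Hif1a alleles were likewise floxed but Cre was absent. Each group held 2 embryos (replicates 2 and 3) at stage E12.5, all on a C57BL/6 background and from litter 6. RNA came from individual hearts with the atria and valves taken away, so each library was 1 embryo. A Cre control with unfloxed Hif1a was not analysed here, so loss of Hif1a cannot be told apart from having Cre, or 1 Nkx2-5 allele changed by it.

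JmjC demethylases take methyl groups off lysines of histone tails by a hydroxylation that uses molecular oxygen, ferrous iron and 2-oxoglutarate, the chemistry also used by the prolyl hydroxylases that mark HIF for destruction. They therefore meet the oxygen response in 2 ways: the enzyme needs oxygen to work, and several of the genes, Kdm3a and Kdm4b best known among them, are transcribed more under low oxygen through HIF-1 in many cell types. The comparison asks whether transcripts of these genes depend on Hif1a in the embryonic ventricle, which develops at low oxygen. RNA levels say nothing of the oxygen that the enzymes had.

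Total expected counts, estimated numbers of reads per gene, lay between 8561687 and 19801300, and cKO replicate 3 was the deepest. Hif1a itself stood at 716 and 663 CPM (counts divided by the TMM-scaled library size and multiplied by 1e6) in cKO replicates 2 and 3, and at 530 and 552 CPM in control replicates 2 and 3. These values add up all exons, floxed or not, and so do not check the deletion (edgeR adjusted p = 0.317, and 0.0286 in DESeq2, for the difference). Nkx2-5, which carries the Cre, had 44.3 and 42.1 CPM in cKO and 55.9 and 64.9 CPM in control (log2 fold change -0.49 ± 0.10 (SE), edgeR adjusted p = 0.153). Xist, the X inactivation RNA, was at 2.11 CPM in cKO replicate 3 against 1754 to 2097 CPM elsewhere: cKO replicate 3 was the only male. Heart muscle markers were high in each library, with 31682 to 35411 CPM summed over 10 genes.

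None of the 10 demethylase genes passed edgeR's quasi-likelihood test (adjusted p from 0.569 to 0.989), and 2, Kdm4b and Kdm2b, had an unadjusted p under 0.05. DESeq2 and limma-voom also called 0. Over all 13711 genes, 0.511% were called, 0.365% lower and 0.146% higher in cKO, and 6.97% had an unadjusted p under 0.05, 3.58% with a lower level in cKO. The log2 fold changes of the 10 genes ran from -0.28 to 0.081, 8 of them negative, with a median of -0.13 against -0.00031 over all genes tested, of which 50.1% were negative. In 5 genes (Kdm2a, Kdm2b, Kdm3a, Kdm4b and Kdm5b) both cKO libraries lay below both controls, as in 18.8% of all genes, and in 1 (Kdm4a) both lay above, as in 19.4%. Kdm4a's groups overlapped when DESeq2's size factors replaced TMM. Without the male cKO replicate 3, 6 genes were lower and 1 higher with no overlap, against 34.0% and 34.3% of all genes.

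For 10 of 10 genes the 95% interval of the log2 fold change, taken from the test's own standard error and not adjusted for the number of genes, left out a 1.5-fold fall (-0.58), as it did for 78.7% of all genes tested and for 90.8% of those with a mean of at least 5 CPM, a level that all 10 exceed. All 10 intervals also left out a 1.5-fold rise, and 66.9% of all genes left out both. The lowest bound was -0.51, for Kdm6b. The count was 9 in DESeq2 (69.6% of all genes) and 9 without cKO replicate 2 (72.4%), where Kdm4b's interval reached a 1.5-fold fall. Without cKO replicate 3 it was 8 (70.0% of all genes), with Kdm3a and Kdm6b reaching it, and without control replicate 2 it was 8 (69.8%), with Kdm4b and Kdm6b reaching it. The plot of fold changes with their intervals shows these genes beside 13 genes known as HIF targets.

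**Figure D1:**
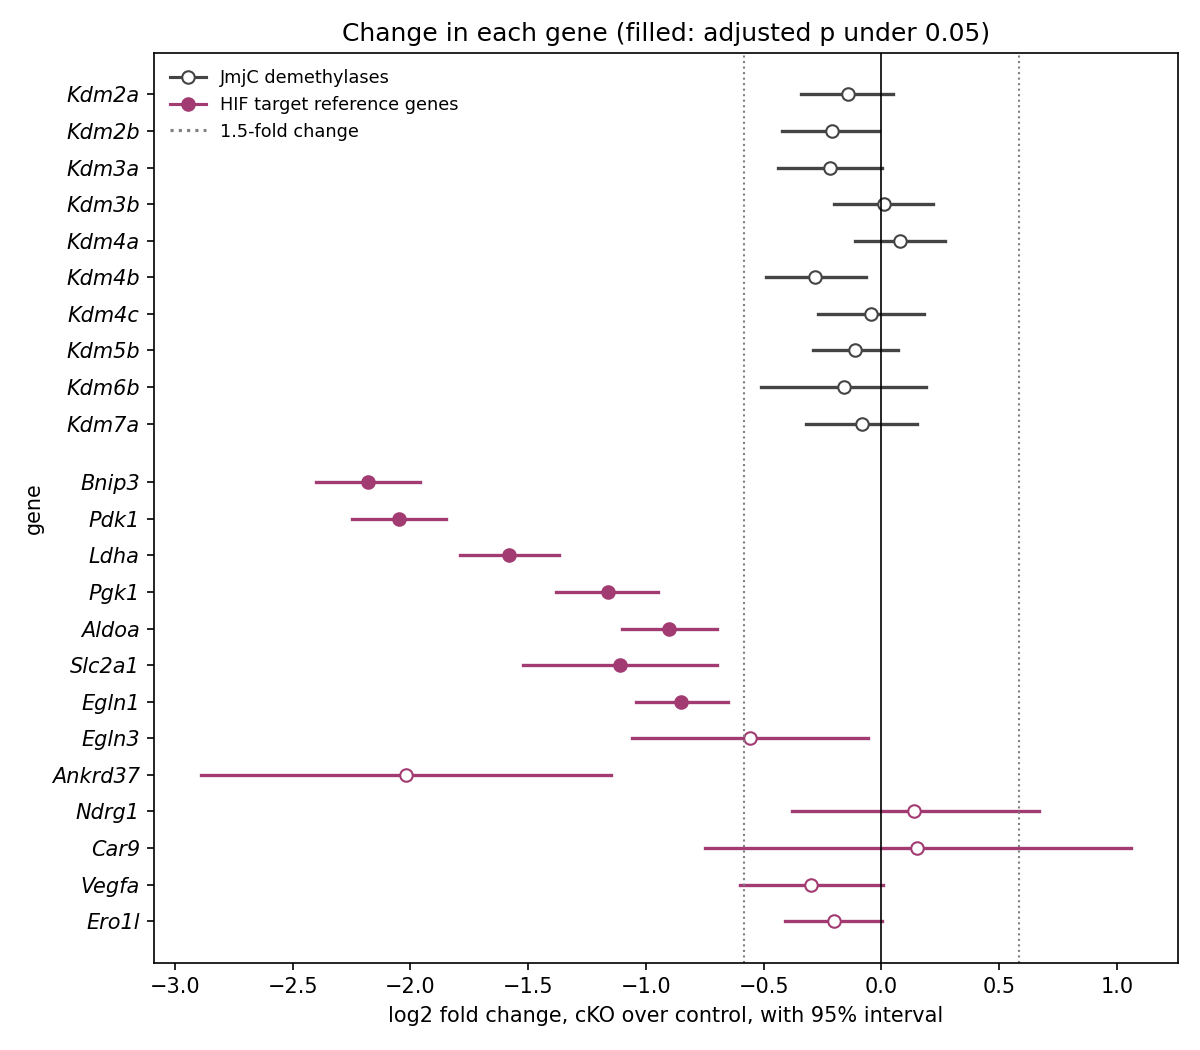
Log2 fold change (cKO over control, x axis) with its 95% interval for the 10 JmjC demethylase genes (grey) and 13 HIF target genes (purple), on 2 libraries per group; filled points have an adjusted p under 0.05, and dotted lines mark a 1.5-fold change. The demethylase points lie between -0.28 and 0.081, with intervals that stay inside the dotted lines, while 7 HIF targets are filled and lie at or below -0.85.

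Those 13 genes, chosen with earlier results of these data known, were measured in the same libraries for comparison. Of them 7 fell, 0 rose and 6 did not pass, with a median log2 fold change of -0.90. Bnip3, a mitochondrial protein that marks mitochondria for removal, fell 4.52-fold, from 158.9 and 143.6 CPM in the controls to 32.1 and 34.6 CPM in cKO (adjusted p = 3.15e-05). Pdk1, a kinase that restrains pyruvate dehydrogenase, fell 4.14-fold (adjusted p = 2.65e-05), Ldha, which makes lactate, fell 2.99-fold (adjusted p = 0.000161), and Pgk1, a glycolytic kinase, fell 2.24-fold (adjusted p = 0.00128). The interval of each of these 4 lay wholly below that of every demethylase gene.

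A core of the element that HIF binds is ACGTG or GCGTG. Both were searched on both strands in the 250 bases before the RefSeq start nearest each gene's annotated start (GRCm38.p6), and a palindromic CACGTG counts as 2 overlapping matches. The same 250 bases were searched in all 32851 windows of RefSeq starts, of which some genes have more than 1. Of these windows 38.6% held at least 1 match (16.6% ACGTG, 28.2% GCGTG), a share that is not by 1 window per gene. The table of promoters held 6 of the 10 genes, and 4 of these 6 windows (Kdm2b, Kdm3a, Kdm5b and Kdm7a) held a match, while Kdm4a and Kdm4c had none; Kdm2a, Kdm3b, Kdm4b and Kdm6b were not among its entries. The windows of Kdm5b (chr1:134559928-134560177, plus strand), Kdm7a (chr6:39206774-39207023, minus strand) and Kdm4a (chr4:118180044-118180293, minus strand) are shown to set demethylase genes with 2, 2 and 0 matches beside Bnip3 (chr7:138909507-138909756, minus strand), whose transcript fell and whose window held 5. Of the other HIF targets that fell and were searched, Ldha held 5, Pgk1 and Egln1 2 each, and Pdk1 1. Sequences are from RefSeq, 5′ to 3′ on the gene's strand, ending at the base before the start, with matches to either strand in capitals.
Kdm5b: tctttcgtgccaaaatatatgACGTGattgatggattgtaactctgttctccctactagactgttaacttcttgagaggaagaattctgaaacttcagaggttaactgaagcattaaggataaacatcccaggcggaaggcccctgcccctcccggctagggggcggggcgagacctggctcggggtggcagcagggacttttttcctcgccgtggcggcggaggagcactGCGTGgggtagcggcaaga
Kdm7a: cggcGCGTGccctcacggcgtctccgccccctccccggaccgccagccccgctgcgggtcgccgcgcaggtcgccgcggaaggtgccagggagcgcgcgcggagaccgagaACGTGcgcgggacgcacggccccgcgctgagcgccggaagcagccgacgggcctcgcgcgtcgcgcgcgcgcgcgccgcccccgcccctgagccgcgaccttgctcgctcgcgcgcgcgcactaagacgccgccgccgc
Kdm4a: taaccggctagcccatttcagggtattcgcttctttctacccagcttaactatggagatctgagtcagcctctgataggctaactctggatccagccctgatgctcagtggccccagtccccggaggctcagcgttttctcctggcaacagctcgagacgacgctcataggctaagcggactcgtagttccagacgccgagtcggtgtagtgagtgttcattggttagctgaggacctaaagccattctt
Bnip3: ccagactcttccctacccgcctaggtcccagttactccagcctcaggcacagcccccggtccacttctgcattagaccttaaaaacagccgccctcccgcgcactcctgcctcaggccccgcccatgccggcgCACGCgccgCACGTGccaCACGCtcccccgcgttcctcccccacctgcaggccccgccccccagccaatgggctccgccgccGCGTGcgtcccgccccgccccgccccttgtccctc
Kdm3a, a known HIF target in other cells, had 1 match in the window of 1 of its 3 RefSeq starts, and Kdm4c had a match at the other of its 2 starts. A match is only a run of letters, and its absence says that these letters are not in this window.

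Kdm3a and Kdm3b remove methyl groups from lysine K9 of histone H3, a mark of silent chromatin. Kdm3a (ENSMUSG00000053470, GRCm38 chromosome 6, 71588972 to 71632990, minus strand) stood at 74.8 and 81.6 CPM in cKO replicates 2 and 3 and at 96.9 and 85.5 CPM in control replicates 2 and 3. The groups did not overlap, but the gap between cKO replicate 3 and control replicate 3 was smaller than the gap within either group. Its log2 fold change was -0.22 ± 0.10 (95% interval -0.44 to 0.003, adjusted p = 0.708), and it ran from -0.31 to -0.13 over 12 alternative settings. Kdm3b (ENSMUSG00000038773, chromosome 18, 34777047 to 34838660, plus strand) stood at 93.1 and 104.1 CPM in cKO and 94.3 and 101.8 CPM in control. The cKO values enclosed the controls, and its log2 fold change of 0.01 ± 0.092 had an interval from -0.20 to 0.22. The log2 ratio of Kdm3a to Kdm3b within a library, which no library scaling can move, was -0.32 and -0.35 in cKO and 0.039 and -0.25 in control. The 2 controls differed from each other by more than control replicate 3 differed from either cKO library.

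Kdm4a, Kdm4b and Kdm4c act on the trimethylated K9 and K36 of histone H3. Kdm4b (ENSMUSG00000024201, chromosome 17, 56326062 to 56402870, plus strand) had the smallest p of the 10 genes. It stood at 38.4 and 37.2 CPM in cKO and at 43.9 and 47.6 CPM in control, with cKO lower in both embryos. The log2 fold change was -0.28 ± 0.092 (95% interval -0.49 to -0.064), which is 17.4% lower in cKO. This did not pass after adjustment (unadjusted p = 0.0168, adjusted p = 0.569), nor under any of 12 alternatives (adjusted p from 0.299 to 1). Kdm4b lies on chromosome 17, which also carries Nkx2-5 and the Cre, at 26838664 to 26845009. Whether this shared chromosome bears on the level of Kdm4b was not tested. Kdm4a (ENSMUSG00000033326, chromosome 4, 118136957 to 118180043, minus strand) had 90.8 and 95.8 CPM in cKO and 85.8 and 90.7 CPM in control (log2 fold change 0.081 ± 0.084), so that the nearest cKO and control values were almost equal. Kdm4c (ENSMUSG00000028397, chromosome 4, 74242497 to 74405860, plus strand) had 34.2 and 31.4 CPM in cKO and 34.5 and 32.7 CPM in control, with overlapping groups (-0.042 ± 0.10). The log2 ratio of Kdm4b to Kdm4a was -1.24 and -1.36 in cKO and -0.97 and -0.93 in control, so the groups stood apart by 0.35 on average. For Kdm4c to Kdm4a the ratios were -1.41 and -1.61 in cKO and -1.31 and -1.47 in control, which overlap. An exact permutation test of 2 against 2 libraries cannot give a two-sided p below 0.33, so these ratios are given without one.

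Kdm2a and Kdm2b bind unmethylated CpG islands and act on K36 of histone H3, and Kdm2b also brings a Polycomb complex to such islands. Kdm2a (ENSMUSG00000054611, chromosome 19, 4314419 to 4398285, minus strand) had 122.8 and 127.8 CPM in cKO and 132.7 and 144.1 CPM in control, with no overlap. Its log2 fold change was -0.14 ± 0.084 (adjusted p = 0.768). Kdm2b (ENSMUSG00000029475, chromosome 5, 122870665 to 122989823, minus strand) had 43.9 and 43.1 CPM in cKO and 48.8 and 51.9 CPM in control, again with no overlap. The log2 fold change was -0.21 ± 0.089 with an interval from -0.42 to -0.0088 (unadjusted p = 0.0428, adjusted p = 0.702). The log2 ratio of Kdm2b to Kdm2a was -1.48 and -1.57 in cKO and -1.44 and -1.47 in control, and the smallest distance between the groups was below the spread in cKO.

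Part of Kdm2b's count is uncertain. Its exons share 627 bases with those of Rnf34 on the other strand, and the library kit does not keep the strand. Rnf34 had 361 to 853 expected counts per library, about as many as Kdm2b. Kdm2b also shares 199 exon bases with A930024E05Rik, likewise on the other strand. With Gm44574, on the same strand and without a row in the deposited table, it shares 124. The transcripts that the deposited table lists for Kdm2b cover 11986 bases, more than the 10869 of its annotated exons. Over 615 bases Kdm2b is identical to Gm12397, which had 15 to 40 counts per library against 413 to 858 for Kdm2b. The other 9 genes had no copy of at least 95% identity over 300 bases. Antisense genes overlapping Kdm3b, Kdm6b and Kdm7a had at most 12.1 expected counts in a library.

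Kdm5b, Kdm6b and Kdm7a cover the remaining marks. Kdm5b (ENSMUSG00000042207, chromosome 1, 134560171 to 134635285, plus strand) removes methyl groups from K4 of histone H3, a mark of active promoters. It had 86.3 and 85.3 CPM in cKO and 91.5 and 93.8 CPM in control, with no overlap (log2 fold change -0.11 ± 0.08, adjusted p = 0.814). Kdm6b (ENSMUSG00000018476, chromosome 11, 69398508 to 69413675, minus strand) removes the Polycomb mark on K27. It had 52.8 and 57.5 CPM in cKO and 51.1 and 72.2 CPM in control. The 2 controls differed by 0.50 on the log2 scale, the largest difference between replicates among the 10 genes, and they enclosed both cKO values. Its log2 fold change was -0.16 ± 0.15, but leaving out control replicate 3 gave 0.11 (adjusted p = 0.952), and leaving out control replicate 2 gave -0.39 (adjusted p = 0.221). Kdm7a (ENSMUSG00000042599, chromosome 6, 39136623 to 39206789, minus strand), which acts on K9 and K27, had 50.5 and 50.3 CPM in cKO and 57.7 and 49.1 CPM in control (-0.083 ± 0.10), with overlapping groups.

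**Figure D2:**
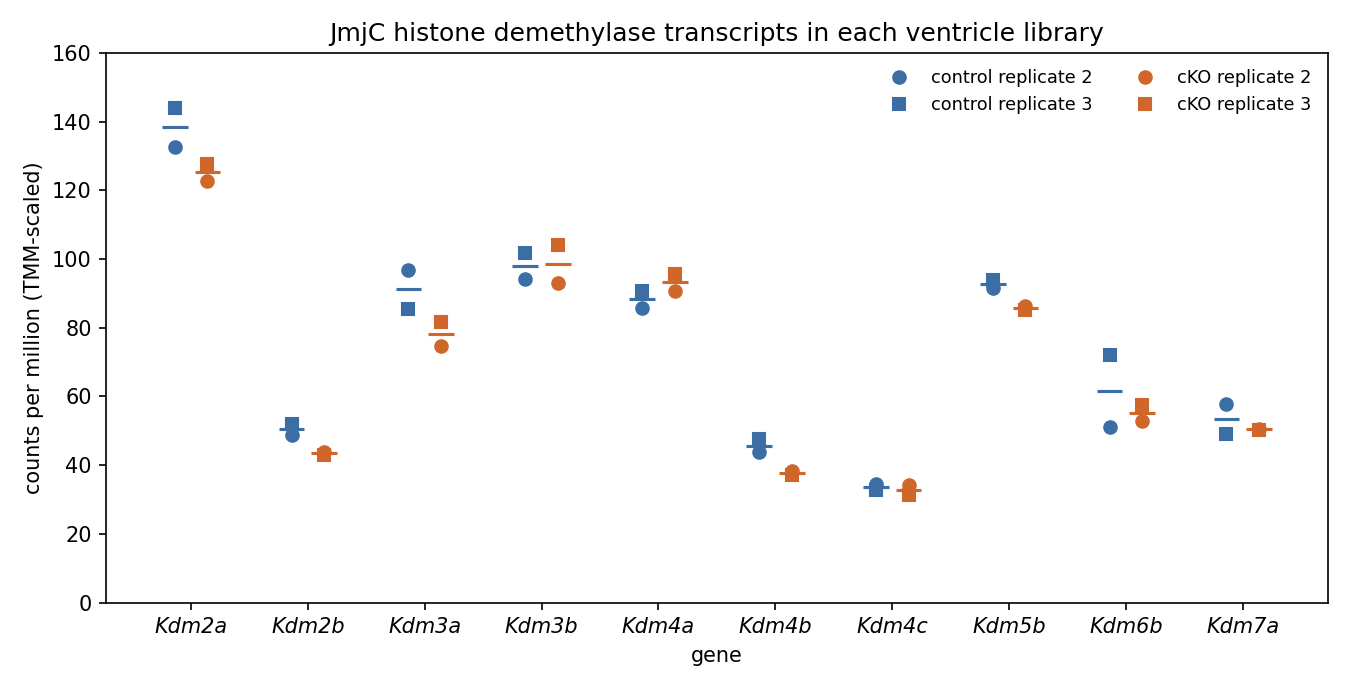
TMM-scaled CPM (y axis) of the 10 demethylase genes in each of the 4 libraries, with circles for replicate 2, squares for replicate 3 and a short line at the mean of each group. Kdm4b and Kdm2b show both cKO points below both control points by a small distance, and the controls of Kdm6b are spread from 51.1 to 72.2.

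The profile of Kdm4b over the 4 libraries was close to those of Tent4a, Bend3, Pcdh12 and Klhl31, by Euclidean distance between centred log2 CPM values (0.0077 to 0.04, 4 libraries). They were picked for the smallest distances, so their log2 fold changes (-0.29 to -0.27) lie near that of Kdm4b by selection. None passed (edgeR adjusted p from 0.535 to 0.708). With 4 libraries many genes share such a profile.

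Per kilobase of exon, all 10 genes were within a few-fold of each other in both groups. Kdm4a was highest, with 15.3 ± 0.603 CPM per kilobase in control and 16.1 ± 0.606 in cKO (SD, n = 2). Kdm2b was lowest by the union of exons, with 4.63 ± 0.203 and 4.0 ± 0.0523, but by the longest transcript it took place 7 (mean of 4 libraries 9.06) and Kdm7a was lowest (5.42). In between, by the mean of 4 libraries, came Kdm3a (10.3), Kdm2a (9.13), Kdm4b (8.54), Kdm6b (8.40), Kdm3b (6.97), Kdm4c (5.70), Kdm5b (5.39) and Kdm7a (5.16). Ranges over the 4 libraries stood apart between Kdm4a and Kdm3a, Kdm3b and Kdm4c, and Kdm7a and Kdm2b, and overlapped for the other 6 neighbours. The order depends on the length used: Kdm3b moved from place 6 to place 3 and Kdm5b from 8 to 5 with the longest transcript, and Kdm3a passed Kdm4a with the transcripts that the deposited table lists.

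**Figure D3:**
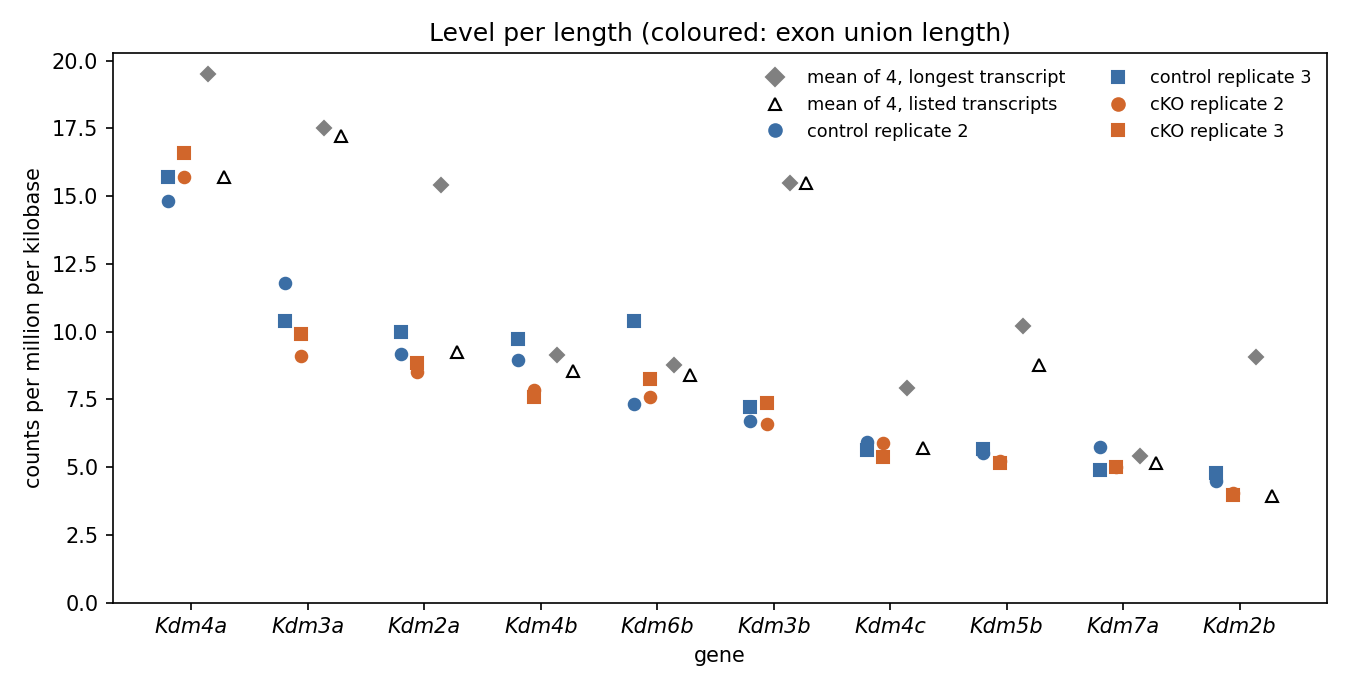
Level per length (CPM per kilobase, y axis) of each gene in the 4 libraries (coloured, by the union of all annotated exons), with the mean of the 4 by the longest transcript (diamonds) and by the transcripts listed in the deposited table (triangles). Kdm4a and Kdm3a are among the highest by each length, and Kdm3b rises from 6.97 to 15.5 with the shorter lengths.

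Of 14 other genes of JmjC demethylases and their close relatives, 10 were tested (median log2 fold change -0.063). None passed in edgeR, DESeq2 or limma-voom. In edgeR 2, the X-linked Phf8 and Kdm5c, had an unadjusted p under 0.05, as had 6.97% of all genes tested. Without cKO replicate 2, which leaves the male alone in cKO, 1 fell and 2 rose. Phf8, on chromosome X, had the smallest p: 38.7 and 38.9 CPM in cKO against 45.0 and 47.4 CPM in control (-0.25 ± 0.088, adjusted p = 0.605). In 2 of the untested 4, the values followed sex. Kdm5d, on the Y chromosome, had 942 counts in cKO replicate 3 and 0 in the other libraries, and Uty, also on the Y, had 870 counts there and at most 2 elsewhere. Their X-linked partners were lowest in that male: Kdm5c had 134.1 CPM against 180.7 CPM in cKO replicate 2 and 191.0 and 209.1 CPM in control, and Kdm6a had 54.5 CPM against 85.5, 95.3 and 88.2 CPM. Their log2 fold changes of -0.35 and -0.41 became -0.15 and -0.10 without cKO replicate 3. The sum of Kdm5c and Kdm5d was 180.7 and 181.4 CPM in cKO replicates 2 and 3, below the 191.0 and 209.1 CPM in control replicates 2 and 3. That of Kdm6a and Uty was 85.6 and 98.2 CPM in cKO and 95.5 and 88.2 CPM in control, which overlap. None of the 10 demethylase genes lies on X or Y.

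**Figure D4:**
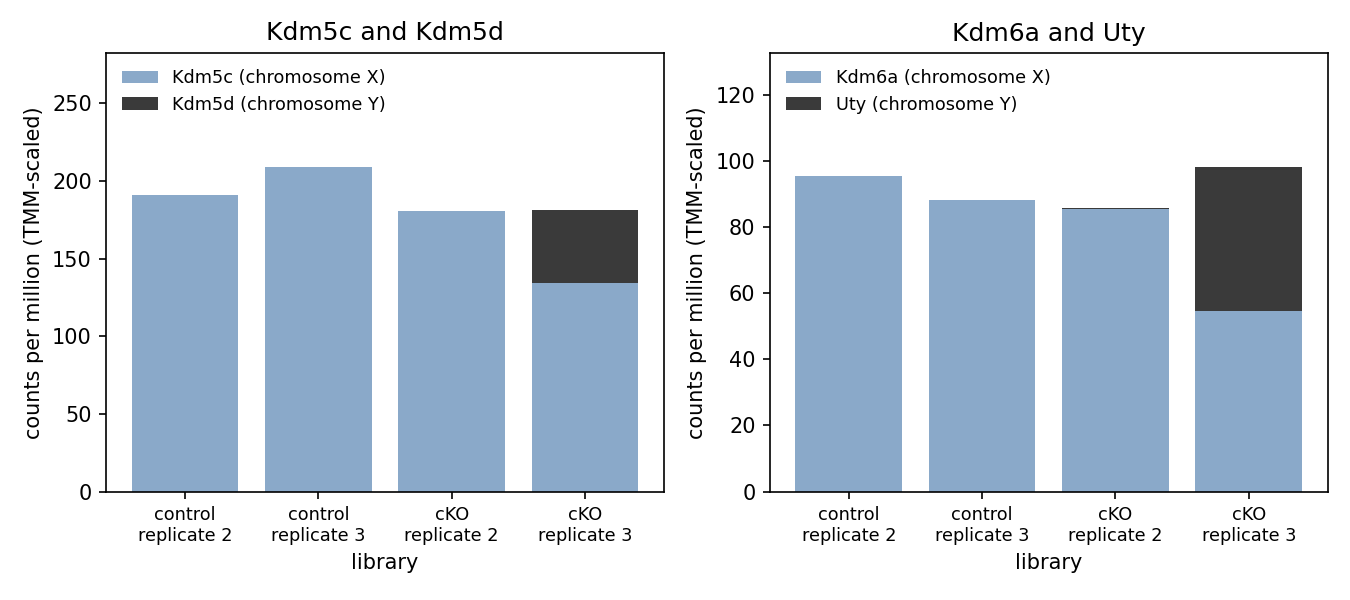
Stacked TMM-scaled CPM (y axis) of the X-linked demethylase genes Kdm5c and Kdm6a (blue) and their Y-linked partners Kdm5d and Uty (black) in each library. The Y-linked part is visible in cKO replicate 3 alone, where the X-linked part is lowest.

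Other enzymes of the same chemistry or of the same marks had no member past edgeR's test. Over all genes tested, 6.97% had an unadjusted edgeR p under 0.05. Of 6 other JmjC proteins tested, which include the HIF asparagine hydroxylase Hif1an, 1 had an unadjusted p under 0.05: Jmjd6, a lysyl hydroxylase, at -0.29 ± 0.10 (adjusted p = 0.545). Of 9 dioxygenases acting on DNA or RNA, 1 did: Alkbh5, which demethylates RNA, had 99.0 and 106.3 CPM in cKO and 130.3 and 145.2 CPM in control (-0.42 ± 0.09, adjusted p = 0.163, and 0.059 in DESeq2). The flavin-dependent demethylases Kdm1a and Kdm1b, which need no 2-oxoglutarate, had -0.038 ± 0.079 and -0.079 ± 0.11. Among the methyltransferases that write the marks, the medians were -0.036 for 6 genes acting on K9 (Setdb2 with the smallest p, 0.27 ± 0.19), 0.01 for 6 Polycomb genes for K27 (Ezh2, 0.11 ± 0.083), -0.033 for 6 acting on K4 (Kmt2b, -0.078 ± 0.10) and -0.049 for 5 acting on K36 (Nsd1, -0.21 ± 0.078, unadjusted p = 0.028). The 9 partners of Kdm2b in its Polycomb complex had a median of 0.0041 (Bcor, -0.12 ± 0.083). The 15 enzymes that make or use 2-oxoglutarate, succinate and fumarate had a median of 0.10. Of them 13 were positive and 2 negative, where 50.1% of all genes tested were negative. An unadjusted p under 0.05 was found for 2, the smallest for Sdhb, a subunit of succinate dehydrogenase (0.24 ± 0.083, adjusted p = 0.582). DESeq2 and limma-voom called none of these genes either.

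Markers of other cells that the ventricle could hold were compared in the same libraries. All 10 endothelial markers had negative log2 fold changes (median -0.22), as had 50.1% of all genes tested. In edgeR 5 had an unadjusted p under 0.05, where 3.58% of all genes had one with a lower level in cKO. None was called in edgeR, DESeq2 or limma-voom. Their summed level was 1482 and 1336 CPM in cKO against 1574.8 and 1661.7 CPM in control. Smooth muscle and pericyte markers summed to 710.7 and 825.1 CPM in cKO and to 1102 and 1131 CPM in control (5 tested). Most of this was Acta2 (mean 548.2 CPM in cKO, 847.1 CPM in control) and Tagln (120.0 and 160.3 CPM). The rest of the list did not share a clear fall: Cspg4 was at -0.15 ± 0.091, Pdgfrb at -0.071 ± 0.17 and Rgs5 at 0.30 ± 0.42. Myh11 was too low to be tested (mean 0.428 CPM in cKO, 0.398 CPM in control). None of the 5 was called in the main edgeR test, where Acta2, the actin of smooth muscle, came closest (-0.63 ± 0.11, adjusted p = 0.0598). DESeq2 called 2 lower, and limma-voom, the edgeR fit with the replicate block, thinning of cKO replicate 3 and leaving it out each called 1 lower. Of the 8 epicardial markers, 7 had negative log2 fold changes (median -0.29), and 3 had an unadjusted edgeR p under 0.05. Their summed levels overlapped, with 354.3 and 264.9 CPM in cKO and 335.4 and 374.0 CPM in control. Only 1, the keratin Krt19, was called in edgeR, and it fell (adjusted p = 0.0347). That call was lost under both other filters, when cKO replicate 3 was left out, and when either control was. Red cell markers were lowest in cKO replicate 2 (2659 CPM summed, against 5058 to 6435 CPM); none of 10 was called, and 6 fell without cKO replicate 3. Summed levels overlapped between groups for cushion (169.2 to 395 CPM), immune (27.8 to 64.5 CPM) and neural (3.97 to 6.78 CPM) markers. Of 7 cushion markers, 2 had negative and 5 positive log2 fold changes, and none was called in edgeR, DESeq2 or limma-voom. Both negative ones had an unadjusted edgeR p under 0.05. Col2a1, with the smallest p, had 5.46 and 36.1 CPM in cKO and 78.8 and 64.9 CPM in control (edgeR adjusted p = 0.545). Atrial markers summed to 33.7 and 33.5 CPM in cKO against 36.8 and 40.5 CPM in control. Liver markers summed to 2.53 and 2.26 CPM in cKO against 0.473 and 0.662 CPM in control. Counts of 0 in at least 1 library occurred for 3 of 6 neural, 3 of 5 liver and 1 of 5 atrial markers, and for no marker of the other lists. The part of these cells in the values of the 10 genes was not tested, and in bulk RNA fewer cells of a type and less RNA per cell cannot be told apart.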

How the data were processed

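Polyadenylated RNA was sequenced from the ventricles of 4 embryos, 2 per group, with 500 ng of total RNA per library and single reads of 75 bases, per the labels. The deposited values are expected counts of reads, 1 per gene and embryo in 1 table, that need not be whole. CASAVA 1.8.2, cutadapt 1.3, RSEM 1.2.3 and GRCm38 are named in the submitters' processing notes; the gene annotation is not given in the sources used here. GENCODE release 21 for mouse (GRCm38) gave symbols to 36345 of 38293 identifiers, positions and lengths.

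The expected counts were rounded, passed through filterByExpr with the groups as design (at least 10 counts, 15 in total) and scaled by TMM. edgeR 4.0.16 (glmQLFit, glmQLFTest, R 4.3.3) compared cKO with control on 2 residual degrees of freedom, with Benjamini-Hochberg adjustment over all 13711 genes and a threshold of 0.05. SE is the log2 fold change over the square root of F, and intervals use the test's total degrees of freedom (8.14). Alternatives were DESeq2 1.42.0 (its test, its size factors), upper-quartile scaling, 2 other filters, limma-voom (limma 3.58.1), the replicate block, thinning of cKO replicate 3 and each library left out. The steps were tested on simulated counts. Transcripts were compared by BLAST 2.17.0. The genes and lists were chosen with earlier results of these data known. Named are the 10 genes, up to 4 called genes or else the 1 with the smallest p in each list, the Hif1a and Nkx2-5 loci, the X and Y partners, and the 5 nearest profiles of the gene with the smallest p, of which 1 is not reported here. Of the listed genes, Jmjd7 had no match by symbol. The counts of replicates were compared by chi-square, which came to 12.2 (cKO) and 5.54 (control) times its degrees of freedom. Replicates thus differed by more than counting noise, which does not by itself show that they came from separate embryos. The kit, TruSeq RNA v2, does not mark strand.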

Additional observations from a re-analysis of the deposited data

How the results depend on the processing

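None of the 10 genes was called under any of 12 alternatives. The number called over all genes was 70, and 39 to 141 when 1 library was left out (141 without cKO replicate 2, 39 without control replicate 3), under the assumption that the lone library's spread equals that of the pair left. The replicate block gave 75 calls and none among the 10 genes; libraries of equal number had a correlation of 0.106 between their deviations from the group means, over genes, and no label gives the numbers a meaning beyond naming embryos. With 1 library left out, log2 fold changes turned sign within their range for Kdm3b (-0.076 to 0.087), Kdm4c (-0.10 to 0.024), Kdm6b (-0.39 to 0.11) and Kdm7a (-0.20 to 0.038); thinning cKO replicate 3 gave -0.0067 for Kdm3b. The other 6 genes kept their direction. Alternatives chosen after seeing the data were the listed transcripts and the counts of groups that do not overlap and of intervals. Of the 10 genes, 1 had both cKO libraries above both controls (19.4% of all genes), and 0 with DESeq2 size factors (19.2%). With a library left out it was 1 to 2 (32.0% to 38.0% of all genes), where fewer libraries make an overlap rarer. Both cKO libraries lay below both controls for 5 (18.8% of all genes), and for 6 to 7 with a library left out (31.1% to 37.1%). The median control level per kilobase was 7.91, against 10.3 by the longest and 9.23 by the listed transcripts. The cause of the other differences was not tested. The 10 genes had 292 to 2544 counts per library, lowest for Kdm4c and highest for Kdm2a.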
